A study of Mus musculus with 38 samples.

Results

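The mouse genes named Zfp followed by a number encode zinc finger proteins, and 340 of the 22231 protein-coding genes of the GENCODE vM1 annotation on the mm9 genome carry such a symbol. Each gene was described by a window that holds its gene body and 20 kb on either side. A Zfp gene was called clustered when the start sites of at least 3 Zfp genes, itself included, lay within 500 kb, with runs that share genes joined, which gave 185 clustered genes in 31 clusters and left 155 single genes, of which 118 had no other Zfp start within 500 kb. The positions of peaks in 11 lists were then counted in these windows. The lists came from wild-type C57BL/6 mice. They are the BUR reference map, made by binding SATB1 in vitro to purified thymus genomic DNA, urea ChIP-seq for SATB1 in thymocytes, brain and skin with 2 lists each, standard ChIP-seq for SATB1 in thymocytes with 2 lists, and CTCF urea ChIP-seq, of which thymocytes and skin have 1 list apiece and so no replicate.

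The labels give an age of 13 days for the thymus and skin samples and 5 and 6 weeks for brain replicates 1 and 2. The title of standard replicate 1 and that of the thymus CTCF sample give 6 weeks instead, and the study's methods describe other ages for skin and brain than the labels do. The standard replicates differed in the SATB1 antibody and in sonication, which lasted 15 s in replicate 1 and 150 s in replicate 2. The urea thymus replicates differed in antibody volume, 4 µl and 2 µl, and the brain replicates in PCR cycles, 10 and 12. The urea lists held 45049 and 38882 peaks in thymocytes, 117963 and 109154 in brain and 11210 and 10846 in skin. The standard lists held 48175 and 27147, the CTCF lists 20323 in thymocytes and 31509 in skin, and the BUR reference map 238380. The lists hold no read counts, so the depth behind a peak is unknown, and peak lists hold no expression by which the labelled cell types could be checked. The labels do not say whether the 2 lists of a group came from separate animals. Both brain titles carry the same sample code. The codes of the urea thymus lists differ only in their last letter, and so do those of the skin lists. The standard titles carry different codes, and what the codes stand for is not given. The study's reporting checklist describes its replicates in general as cells from different animals, without naming these samples. The p-values below measure the spread between lists, which holds the differences in antibody and handling just named.

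A zinc finger is a short fold in which cysteines and histidines hold a zinc ion, and fingers in a row read bases along the major groove of DNA. Many Zfp proteins also carry a KRAB domain, which recruits the co-repressor TRIM28 and the histone H3 lysine 9 methyltransferase SETDB1 and silences transposable elements, and such genes often stand in tandem clusters. SATB1 is a nuclear protein abundant in thymocytes that binds base unpairing regions (BURs), stretches of DNA that unwind readily and in which runs of bases lack G or lack C on the same strand. In urea ChIP-seq the crosslinked genomic DNA is purified through urea before it is fragmented, whereas standard ChIP-seq starts from fragmented chromatin.

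The DNA under 4 of the strongest urea SATB1 peaks in Zfp windows is shown first, because these peaks were in all 6 urea lists and all lay on BURs. Each sequence holds 201 bases centred on the summit, read 5′ to 3′ on the plus strand of mm9 (NCBIM37). Capitals mark the longest run without G or without C on that strand. They come from the upstream flank of Zfp365 (chr10:67384367-67384567), the downstream flanks of Zfp420 (chr7:30708012-30708212) and Zfp141 (chr7:49711001-49711201), and an intron of Zfp68 (chr5:139050027-139050227).
Zfp365: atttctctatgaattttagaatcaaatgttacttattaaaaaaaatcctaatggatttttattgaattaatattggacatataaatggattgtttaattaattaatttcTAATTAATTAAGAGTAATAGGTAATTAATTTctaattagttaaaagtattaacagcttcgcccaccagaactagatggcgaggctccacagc
Zfp420: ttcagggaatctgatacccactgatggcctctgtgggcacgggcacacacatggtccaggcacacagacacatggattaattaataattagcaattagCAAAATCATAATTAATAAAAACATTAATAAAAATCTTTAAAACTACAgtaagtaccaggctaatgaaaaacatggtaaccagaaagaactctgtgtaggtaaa
Zfp141: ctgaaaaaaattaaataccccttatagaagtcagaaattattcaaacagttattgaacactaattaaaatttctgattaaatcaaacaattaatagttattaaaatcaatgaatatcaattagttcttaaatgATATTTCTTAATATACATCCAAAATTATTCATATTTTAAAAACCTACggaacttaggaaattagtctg
Zfp68: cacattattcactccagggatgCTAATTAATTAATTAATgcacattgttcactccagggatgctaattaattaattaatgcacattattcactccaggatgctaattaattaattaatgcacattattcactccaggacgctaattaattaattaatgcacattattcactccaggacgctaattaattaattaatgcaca

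The marked runs were 31 bases without C at Zfp365, and 47, 47 and 17 bases without G at Zfp420, Zfp141 and Zfp68. The 201 bases were 74.6% A or T at Zfp365, 63.7% at Zfp420, 78.6% at Zfp141 and 69.2% at Zfp68. Any sequence has a longest run of this kind, so the capitals describe these stretches and were not compared with other sequences. Of the 4 stretches, 3 were richer in A or T than the average Zfp window (56.0%) by over 10 percentage points. At the Zfp365 peak, 9.06 kb upstream of the gene, the fold enrichment was 33.0 and 32.3 in the thymocyte lists, 26.8 and 27.9 in the brain lists and 27.2 and 28.8 in the skin lists. These values lay close together within each tissue. The peak 7.43 kb downstream of Zfp420 reached 27.5 and 30.0 in thymocytes, that 17.7 kb downstream of Zfp141 reached 24.8 and 26.5 in brain, and that in Zfp68 reached 25.8 and 25.9 in skin. The peaks at Zfp365, Zfp420 and Zfp141 overlapped no standard SATB1 or CTCF peak, while that at Zfp68 overlapped a peak of standard replicate 2 and none of standard replicate 1. The fold enrichment is scaled within each list, so its height was not compared between tissues.

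For contrast, the next sequences lie under 2 of the 3 strongest standard SATB1 peaks found in both replicates, with capitals at each CG dinucleotide. They come from the downstream flank of Zfp771 (chr7:134404341-134404541) and from the start of Zfp113 (chr5:138596966-138597166), both on the plus strand of mm9.
Zfp771: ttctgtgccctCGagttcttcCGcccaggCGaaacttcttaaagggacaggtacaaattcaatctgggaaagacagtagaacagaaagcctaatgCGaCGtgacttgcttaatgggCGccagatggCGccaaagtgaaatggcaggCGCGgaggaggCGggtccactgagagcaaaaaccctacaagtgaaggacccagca
Zfp113: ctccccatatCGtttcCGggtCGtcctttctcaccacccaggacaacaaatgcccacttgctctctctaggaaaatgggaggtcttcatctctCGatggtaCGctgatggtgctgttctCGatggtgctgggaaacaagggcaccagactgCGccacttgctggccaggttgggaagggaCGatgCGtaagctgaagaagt

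These held 10 and 9 CG dinucleotides and were 47.3% and 45.3% A or T, and the Zfp113 summit lay 0.094 kb upstream of the start. Neither peak overlapped a BUR or a urea SATB1 peak, and both overlapped CTCF peaks of thymocytes and skin. The other of the 3, 9.36 kb upstream of Zfp945 and not shown as sequence, differed in this. It overlapped no BUR and no thymocyte CTCF peak, but a urea SATB1 peak of skin replicate 1 and a CTCF peak of skin, and its fold enrichment differed between standard replicates 1 and 2, at 28.6 and 13.6. The fold enrichment in standard replicates 1 and 2 was 24.9 and 20.9 at Zfp771 and 24.0 and 13.7 at Zfp113. Over all peaks in Zfp windows the same contrast in base composition was seen. The median A or T content of the 201 bases around the summit was 71.6% for BURs, between 65.7% and 69.2% in the 6 urea SATB1 lists, and 44.3% and 41.8% in the standard lists. The CTCF lists lay between, at 49.3% and 50.2%.

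BURs were found near most Zfp genes, and urea SATB1 peaks near a share that differed by tissue. At least 1 BUR lay in the window of 301 of the 340 Zfp genes (88.5%), against 86.6% of all protein-coding genes. The number of BURs per Zfp window ran from 0 to 54 with a median of 2.5. A urea SATB1 peak lay in 147 and 130 Zfp windows in the 2 thymocyte lists (background 46.2% and 43.9% of all genes), in 229 and 219 in the brain lists (63.8% and 61.9%) and in 54 and 49 in the skin lists (21.6% and 20.9%). As shares of the Zfp genes these were 43.2% and 38.2% in thymocytes, 67.4% and 64.4% in brain and 15.9% and 14.4% in skin. The brain shares thus lay a little above the background and the thymocyte and skin shares below it. Standard ChIP-seq gave a SATB1 peak in 314 and 259 Zfp windows, or 92.4% and 76.2%, where the background was 75.1% and 65.4%. CTCF was found in 182 windows in thymocytes (53.5%, background 61.7%) and in 218 in skin (64.1%, background 72.2%).

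Counting only genes with a peak in both replicates, urea SATB1 was found at 124 Zfp genes in thymocytes (36.5%, background 40.4%), at 203 in brain (59.7%, background 58.3%) and at 43 in skin (12.6%, background 18.3%). Standard SATB1 was found at 257 (75.6%, background 64%). The brain lists are the longest and the skin lists the shortest, which bears on every overlap between them. No Zfp gene had urea SATB1 in both thymocyte replicates without a peak in a brain list, as was also rare among all protein-coding genes (0.436%). At 55 Zfp genes (16.2%, all genes 11.7%) it lay in both brain replicates and in no thymocyte or skin list. In 39 Zfp genes (11.5%, all genes 16.0%), urea SATB1 was found in both replicates of all 3 tissues, among them Zfp217, Zfp407, Zfp536, Zfp644 and Zfp652. A BUR in the window and no urea SATB1 peak in any of the 6 lists was found at 64 (18.8%, all genes 20.0%), and 39 had no BUR at all (11.5%, all genes 13.4%). Standard SATB1 was present in both replicates without any urea thymocyte peak at 149 Zfp genes (43.8%, all genes 33.2%). Only 24 had no standard peak (7.06%, all genes 23.5%), among them Zfp423, Zfp735 and Zfp663. Neighbouring windows overlap in clusters, so the same peak can count for several clustered genes, and the densities below were taken over merged windows.

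Per length of DNA, Zfp windows held fewer BURs and urea SATB1 peaks and more standard SATB1 peaks than the windows of all protein-coding genes. The merged Zfp windows covered 19.8 Mb, and those of all protein-coding genes, Zfp genes included, 1404 Mb. The density of BURs was 52.6 per Mb in Zfp windows and 72.7 per Mb in all. Urea SATB1 peaks stood at 10.2 and 8.32 per Mb in thymocytes against 14.7 and 12.8, at 24.9 and 23.7 in brain against 37.4 and 34.6, and at 3.07 and 2.62 in skin against 3.91 and 3.77. In each of the 6 urea lists the Zfp windows were the lower. Standard SATB1 peaks stood at 41.5 and 25.9 per Mb in Zfp windows against 27.7 and 15.8, higher in both lists. CTCF peaks stood at 15.2 against 12.0 in thymocytes and 19.9 against 17.2 in skin.

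**Figure D1:**
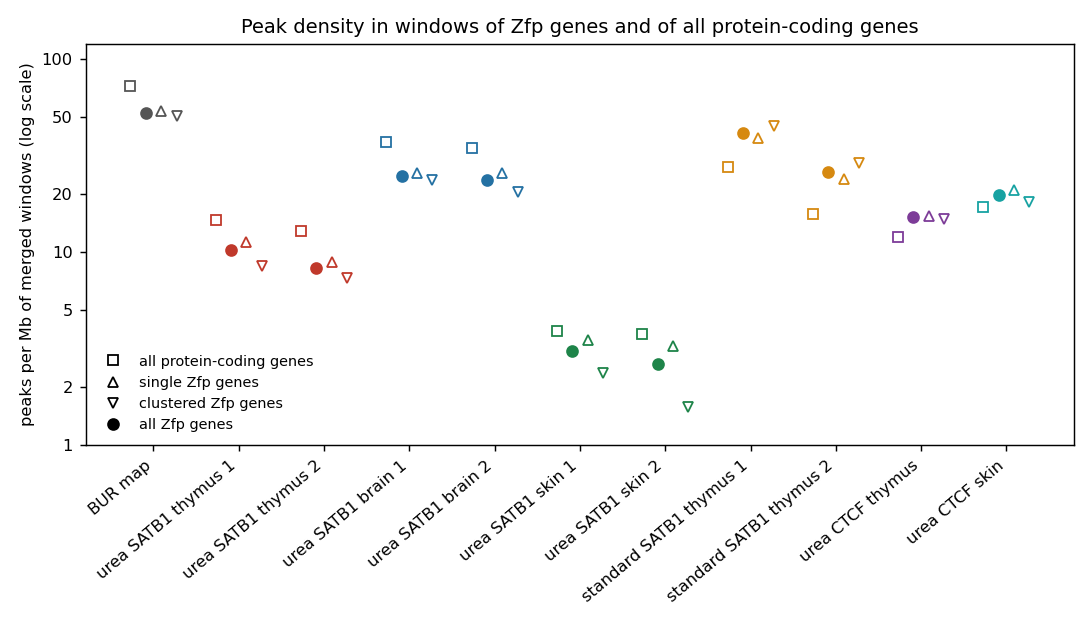
Peaks per Mb of merged windows on a log axis for each of the 11 lists, with all protein-coding genes as squares, all Zfp genes as filled circles, single Zfp genes as upward and clustered ones as downward triangles. The filled circle lies below the square for BURs and the 6 urea SATB1 lists, and above it for the standard SATB1 and CTCF lists.

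On the log2 scale, the density in Zfp windows relative to all protein-coding windows was -0.57 ± 0.07 in thymocytes (SD, n = 2), -0.57 ± 0.03 in brain (n = 2) and -0.43 ± 0.13 in skin (n = 2). The skin and thymocyte lists overlapped in this value. Brain minus skin was -0.13 (exact permutation test over 90 assignments, two-sided, p = 0.467, adjusted over the 6 tests made p = 0.467), and the smallest p that this design allows is 0.0667. For standard SATB1 in thymocytes the same value was 0.65 ± 0.09 (n = 2), so that urea minus standard was -1.22. With 2 lists against 2 the exact two-sided permutation p was 0.333 (adjusted p = 0.4), which is the smallest that 6 assignments can give, and so no threshold of 0.05 could be reached. Standard replicate 2 used the 1583D antibody of the urea lists and replicate 1 a commercial antibody, with log2 ratios of 0.72 and 0.59. Each antibody had a single standard list, and these lists also differed in sonication. The title of standard replicate 1 gives 6 weeks where its label gives 13 days, so age may differ as well. The part of the antibody or of age was not tested. Sonication and other steps that go with a method cannot be told apart from it.

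Gene length moved with these densities. Only 29 Zfp genes (8.53%) had a gene body of 50 kb or more, against 4832 of all protein-coding genes (21.7%), although the median body was similar at 14.9 kb and 15.5 kb. When only genes under 50 kb were compared, the log2 ratio of BUR densities was -0.21 in place of -0.47. That of urea SATB1 became -0.37 in thymocytes and -0.23 in brain, and that of standard SATB1 0.34, all with the same sign as before. The CTCF ratios were -0.08 in thymocytes and -0.12 in skin on that set, so a higher CTCF density near Zfp genes was not seen among shorter genes. Base composition and the share of 50-base stretches that occur once in the genome differed little, at 56.0% A or T and 89.7% unique in Zfp windows and 56.9% and 90.8% in all.

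Most of the urea peaks in Zfp windows lay on BURs, and most BURs there carried no urea peak. A BUR was overlapped by 66.5% and 69.1% of the thymocyte urea peaks in Zfp windows, by 63.9% and 62.8% of the brain peaks and by 70.5% and 80.8% of the skin peaks. In the windows of all protein-coding genes these shares were 71.5% and 73.8%, 69.2% and 68.9%, and 75.3% and 76.3%, so the Zfp values lay below them in 5 of the 6 lists and above in skin replicate 2. The share was 2.43% and 2.53% for the standard SATB1 peaks, where all windows gave 2.96% and 3.54%. It was 1.33% and 3.04% for the CTCF peaks of thymocytes and skin, where all windows gave 2.26% and 3.23%. Zfp windows held 1043 BURs, and urea SATB1 bound 12.9% and 10.9% of them in the thymocyte lists, 29.9% and 28.3% in the brain lists and 4.12% and 4.03% in the skin lists. In the windows of all protein-coding genes the means were 13.7% in thymocytes, 34.2% in brain and 4.00% in skin.

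**Figure D2:**
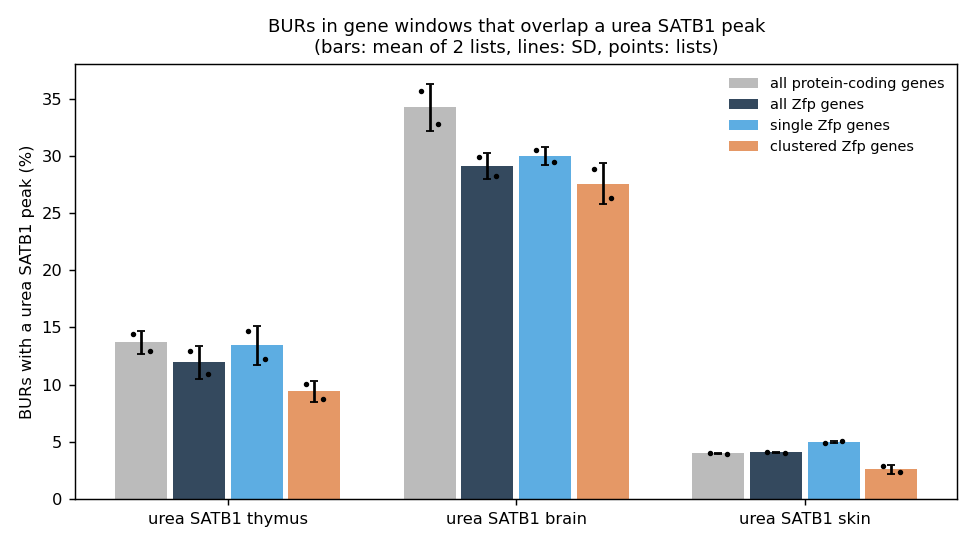
The percentage of BURs in gene windows that overlap a urea SATB1 peak in thymocytes, brain and skin, with bars for the mean of 2 lists, lines for the SD and points for the lists, for all protein-coding genes and for all, single and clustered Zfp genes. In Zfp windows 29.1% of BURs were bound in brain, 11.9% in thymocytes and 4.07% in skin, and the clustered genes have the lowest bar in each tissue.

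The means over Zfp windows were 11.9% ± 1.42 (SD, n = 2) in thymocytes, 29.1% ± 1.15 (n = 2) in brain and 4.07% ± 0.07 (n = 2) in skin, and no 2 tissues overlapped. The exact two-sided permutation test over the 6 lists gave p = 0.0667, the smallest possible, with an adjusted p = 0.4. The order of the tissues followed the length of the lists. When each list was cut to its strongest 10619 peaks, brain minus skin fell from 25.0 to -0.34 percentage points (exact permutation p = 1). Of the 1043 BURs, 35 were bound in both replicates of all 3 tissues (3.36%, against 3.10% of the BURs of all protein-coding windows), 66 in thymocytes and brain but not skin (6.33% against 7.95%), and 169 in brain only (16.2% against 18.9%). Just 4 were bound in thymocytes only (0.384% against 0.214%) and 3 in skin only (0.288% against 0.192%). No urea SATB1 peak of any list overlapped 699 of them (67.0%), and 62256 of the 102037 BURs of all protein-coding windows. The BURs bound in both replicates of at least 1 tissue had a median fold enrichment of 7.37 in the BUR reference map, against 6.22 for those with no peak, while both were alike in base composition (68.4% and 67.8% A or T over the BUR) and similar in length, with medians of 445 and 431 bp. Over all protein-coding windows the corresponding fold enrichments were 7.34 and 5.58.

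Standard SATB1 peaks gathered at the start sites of Zfp genes, and BURs and urea SATB1 peaks were sparse there. A standard peak lay within 1 kb of the start of 252 and 184 Zfp genes, or 74.1% and 54.1%, where the background was 50.6% and 38.6% of all protein-coding genes. It did so in both replicates at 181 Zfp genes (53.2%, background 38.3%). A urea SATB1 peak lay there at 5 and 2 Zfp genes in thymocytes (1.47% and 0.588%, background 1.91% and 1.78%), at 11 and 12 in brain (3.24% and 3.53%, background 4.73% and 4.25%) and at 2 in each skin list (background 0.594% and 0.589%). In both replicates these were Zfp652 and Zfp949 in thymocytes (0.588%, background 1.44%) and the same 2 genes in skin (0.588%, background 0.486%), and 8 genes in brain (2.35%, background 3.59%), among them Zfp281, Zfp397 and Zfp735. A BUR lay within 1 kb of the start of 21 Zfp genes (6.18%, background 9.05%). Zfp397, Zfp560 and Zfp652 combined it with standard SATB1 in both replicates at the start (0.882%, background 1.77%).

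The mean share of Zfp starts with a peak was 1.03% ± 0.62 (SD, n = 2) by urea and 64.1% ± 14.1 (n = 2) by standard ChIP-seq in thymocytes. Urea minus standard was -63.1 percentage points, with the exact two-sided permutation p at its smallest possible value of 0.333 (adjusted p = 0.4). CTCF lay within 1 kb of the start at 44 Zfp genes in thymocytes and at 44 in skin (12.9% each, background 10.9% and 13.1%). Of the 44 with thymocyte CTCF, 39 also had standard SATB1 in both replicates at the start (88.6%, against 76.1% of the 2432 protein-coding genes with thymocyte CTCF there), Zfp113, Zfp219 and Zfp568 among them.

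**Figure D3:**
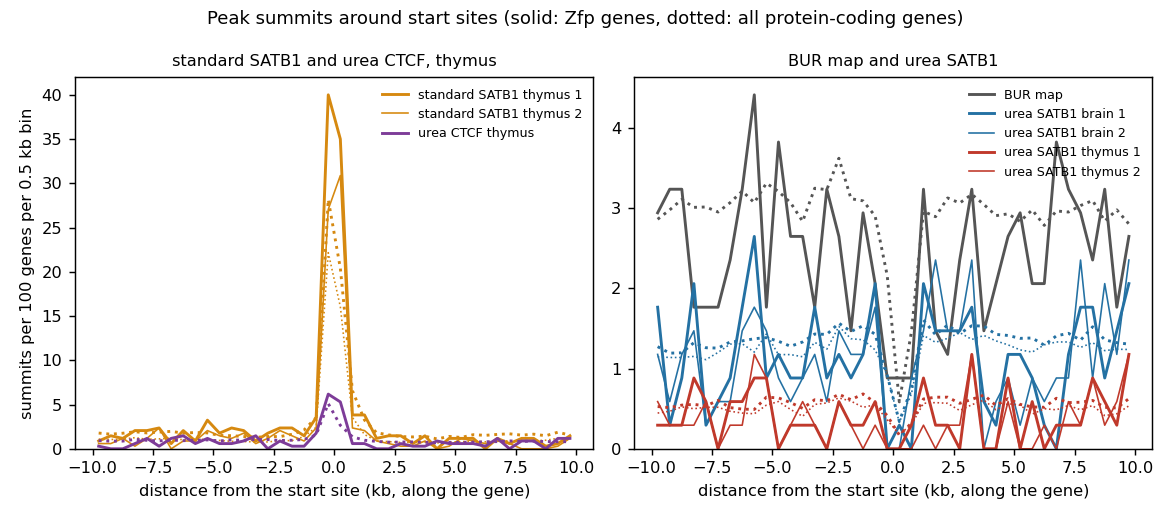
Summits per 100 genes in bins of 0.5 kb up to 10 kb on either side of the start site, with Zfp genes as solid lines and all protein-coding genes as dotted lines. The left panel shows standard SATB1 and thymocyte CTCF with a sharp rise at the start, and the right panel BURs and urea SATB1 of thymocytes and brain with a dip there, on a smaller scale.

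Within 1 kb of the start, standard SATB1 summits averaged 20.6 and 15.7 per 100 Zfp genes per bin of 0.5 kb, against 1.28 and 0.779 at 5 to 10 kb from it. The near level was thus 16.1 and 20.1 times the far one at Zfp genes, and 8.64 and 11.0 times at all protein-coding genes. For CTCF in thymocytes the levels were 3.46 near and 0.676 far. The profile of BURs ran the other way, with 1.18 near and 2.68 far, a ratio of 0.44 at Zfp genes and 0.59 at all protein-coding genes. The 2 kb around Zfp starts were 50.2% A or T, against 49.5% for all genes.

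Few of the exons that encode the fingers overlapped a BUR or a SATB1 peak of either method. A search of the translated coding sequence for a fixed spacing of a finger of the Cys-Cys-His-His kind found a median of 10 fingers per Zfp protein. It found up to 35 in Zfp142, 33 in each of Zfp462 and Zfp619, and none in 25 genes such as Zfp36, Zfp365 and Zfp106. Fingers with another spacing were not counted, so these counts may be too low, and the choice of exons below rests on them. In the 299 exons that hold the most fingers of each gene with 2 or more fingers, which cover 0.435 Mb and were 52.6% A or T and 93.9% unique, BURs overlapped 3, those of Zfp189, Zfp72 and Zfp791. A urea SATB1 peak overlapped the Zfp791 exon in all 6 lists and the Zfp189 exon in both brain lists, and no other. Standard SATB1 overlapped 10 finger exons in replicate 1 and 7 in replicate 2, with those of Zfp219, Zfp384, Zfp408, Zfp51, Zfp697 and Zfp771 in both. Per Mb of finger exon this came to 6.90 BURs, 4.60 urea peaks in each brain list, and 25.3 and 16.1 standard peaks, with a single urea peak in all in each thymocyte and each skin list. The exons of all protein-coding genes, untranslated ones included and counted by summits, held 32.7 BURs per Mb. They held 6.38 and 5.40 urea summits per Mb in thymocytes, 18.4 and 16.9 in brain, 2.13 and 1.97 in skin, and 81.8 and 53.1 by standard ChIP-seq. The single peak of each skin list over 0.435 Mb was thus close to the level of all exons. The values of BURs, of thymocyte and brain urea SATB1 and of standard SATB1, counted by overlap, lay below their levels in all exons. The exons of Zfp genes as a whole, counted by summits, held 31.2 BURs and 82.96 and 70.2 standard peaks per Mb. Their thymocyte urea values were 4.96 and 3.55. The low standard values were thus those of finger exons and not of Zfp exons in general. Of the 299 finger exons, 258 were the last of their gene, and the part of this position in the values was not tested. Of the 179 finger exons of clustered genes, none overlapped a BUR or a urea SATB1 peak, and 2, of Zfp51 and Zfp771, overlapped a standard peak. In the whole Zfp windows, 43.5% of BUR summits lay in introns and 4.23% in exons.

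A KRAB signature, searched as a fixed amino acid pattern, was found in 152 Zfp genes, 114 of them clustered. These are called KRAB genes here. A KRAB domain that departs from the pattern was not counted, so the others may include genes that encode one. In standard replicate 1 the genes with and without it were alike, with a peak near the start of 111 of 152 and 141 of 188 genes and in the window of 92.1% and 92.6%. In standard replicate 2 the KRAB genes had the lower shares, 73 of 152 genes against 111 of 188 at the start and 69.1% against 81.9% in the window. Over all protein-coding genes the shares in replicates 1 and 2 were 50.6% and 38.6% at the start. In the window they were 75.1% and 65.4%, and both kinds of Zfp gene lay above each of these levels. Both replicates had a peak at the start of 71 of the 152 KRAB genes (46.7%) and 110 of the 188 others (58.5%, background 38.3%). These shares are given without a test. BURs stood at 59.4 per Mb in KRAB windows and 48.5 per Mb in the others, and urea SATB1 in brain at 27.1 and 25.1 against 24.1 and 22.8. The KRAB windows were richer in A or T, 57.7% against 55.1%, and less unique, 82.2% against 94.0%, and the part of either in the differences was not tested.

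Clustered Zfp genes had lower urea SATB1 densities than single ones in every urea list and higher standard densities in both standard lists. Their merged windows covered 7.65 Mb and 12.2 Mb. BUR densities were close, 50.7 per Mb for clustered and 53.7 for single genes. Urea SATB1 stood at 8.50 and 7.32 per Mb against 11.3 and 8.94 in thymocytes, at 23.5 and 20.5 against 25.7 in both lists in brain, and at 2.35 and 1.57 against 3.53 and 3.28 in skin. Standard SATB1 stood at 45.1 and 28.9 against 39.3 and 24.0. CTCF stood at 14.9 against 15.3 in thymocytes and 18.2 against 21.0 in skin.

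The log2 ratio of clustered to single densities was -0.35 ± 0.09 in thymocytes (SD, n = 2), -0.22 ± 0.14 in brain (n = 2) and -0.82 ± 0.34 in skin (n = 2). Both skin lists (-0.58 and -1.06) lay below the thymocyte lists (-0.41 and -0.29) and the brain lists (-0.13 and -0.32). Brain minus skin was 0.60 (exact two-sided permutation p = 0.133, adjusted p = 0.4), in a design that cannot give a p below 0.0667. By standard ChIP-seq the ratio was 0.23 ± 0.05 (n = 2), and urea minus standard was -0.58 (exact permutation p = 0.333, the smallest possible, adjusted p = 0.4). This contrast turned when long genes were left out, and the part of gene length in it was not tested. A gene body of 50 kb or more was found in 27 single genes (17.4%) and in 2 clustered ones (1.08%). Among the 183 clustered and 128 single genes below that length, the ratio was -0.05 in thymocytes, 0.070 in brain and -0.12 by standard ChIP-seq, and urea minus standard was 0.077. The lower skin density at clustered genes remained in both lists, at -0.45 and -1.03, but rested on 18 and 12 skin peaks in all clustered windows. Unique 50-base stretches made up 86.7% of clustered and 91.6% of single windows.

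The share of BURs bound was lower in clustered than in single windows in each of the 6 urea lists, by margins that differed. In thymocytes 10.1% and 8.76% of the 388 BURs in clustered windows were bound, and 14.7% and 12.2% of the 655 in single windows. In brain the shares were close, 28.9% and 26.3% against 30.5% and 29.5%. In skin they were 2.84% and 2.32% against 4.89% and 5.04%, and the clustered values rest on 11 and 9 bound BURs. Urea SATB1 in both skin replicates was found at 17 of 185 clustered genes (9.19%) and at 26 of 155 single genes (16.8%), where the background was 18.3%. Standard SATB1 in both replicates was found at 138 (74.6%) and 119 (76.8%), where the background was 64%. These shares are given without a test, since genes that share a window are no replicates.

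The clusters lay on 14 of the 20 chromosomes that hold Zfp genes and had 3 to 18 members. Chromosome 7 held 9 clusters with 69 of its 86 Zfp genes. The density of BURs over whole clusters, other genes between the Zfp genes included, ran from 18.7 to 112 per Mb with a median of 52.2, and that of standard replicate 1 from 6.97 to 106 with a median of 34.5. In 12 clusters the standard peaks of replicate 1 outnumbered the BURs. Brain urea SATB1 was present in both lists in 30 of the 31 clusters. In either list, 3 clusters had no thymocyte urea peak and 12 no skin urea peak. The same order was seen in all protein-coding windows, with 37.4 and 34.6 peaks per Mb in the brain lists. There the thymocyte lists held 14.7 and 12.8 per Mb and the skin lists 3.91 and 3.77. The median cluster spanned 0.431 Mb. The part of list length and cluster size in these counts was not tested, so they show no tissue difference particular to Zfp clusters.

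The largest cluster runs from Zfp640 to Zfp273 (chr13:66751705-67947937) with 18 Zfp genes over 1.20 Mb. It held 89 BURs, but only 4 and 5 thymocyte urea peaks, with 33 and 26 in brain, 3 and 1 in skin and 36 and 17 standard peaks. The next, from Zfp160 to Zfp946 (chr17:21125905-22613656), has 16 Zfp genes, all with the KRAB signature, and held 107 BURs with 18 and 14 urea peaks in thymocytes, 44 and 41 in brain, 5 in each skin list and 37 and 23 standard peaks. The BUR densities of both, 74.4 and 71.9 per Mb, were near the 72.7 per Mb of all protein-coding windows. Their unique 50-base shares were close, 73.7% and 76.6%. In some other clusters the peaks of standard replicate 1 outnumbered the BURs. The cluster from Zfp553 to Zfp668 (chr7:134356575-135049510, 10 Zfp genes) held 15 BURs, 2 urea peaks in each thymocyte list and 4 in each brain list, against 51 and 44 standard peaks. In the cluster from Zfp180 to Zfp575 (12 Zfp genes) there were 20 BURs, 3 and 1 thymocyte urea peaks, no skin peak and 38 and 19 standard peaks. There the peaks of standard replicate 2 were fewer than the BURs.

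**Figure D4:**
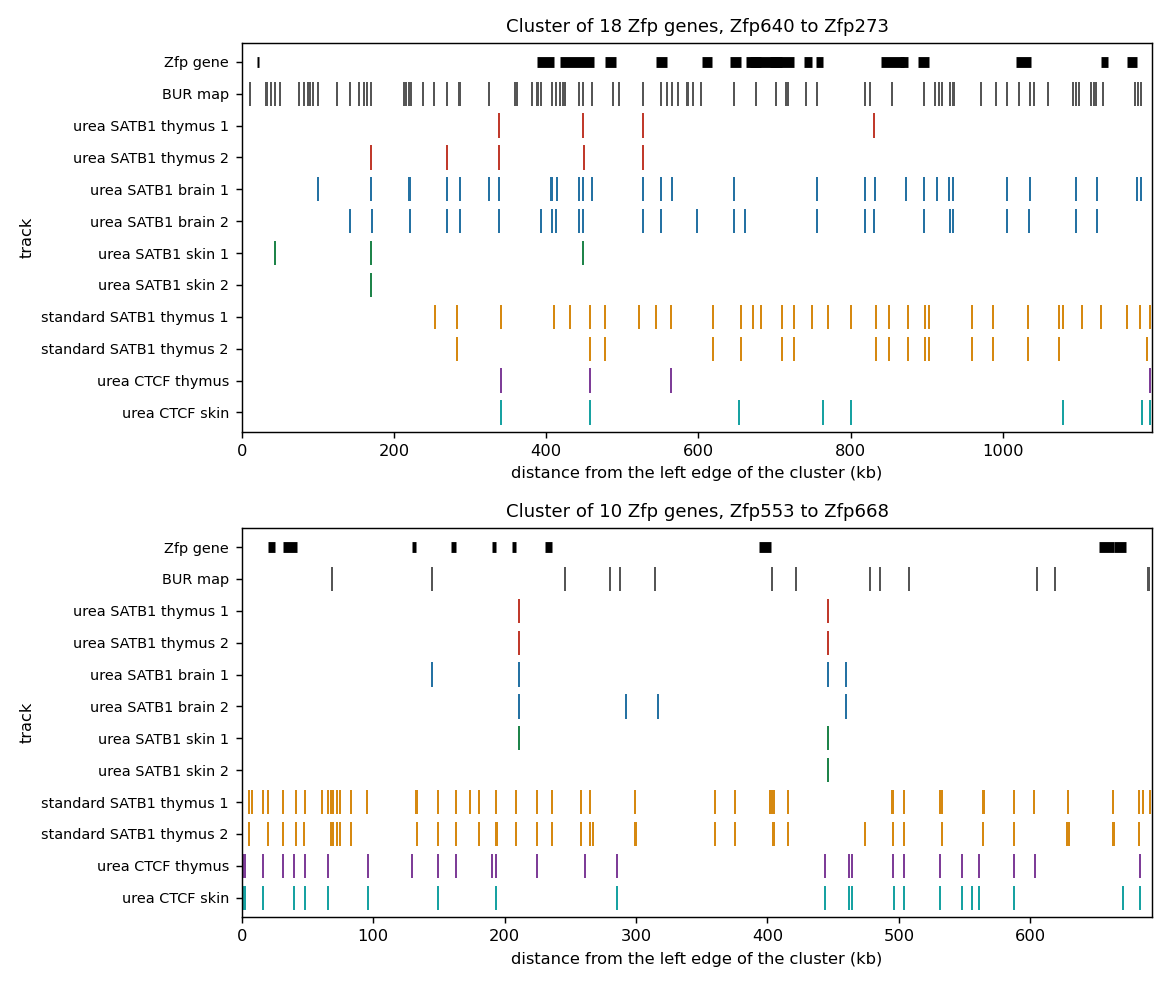
Peaks of the 11 lists along the clusters Zfp640 to Zfp273 and Zfp553 to Zfp668, with black boxes for the Zfp genes and each tick a peak, placed by its distance in kb from the left edge of the cluster. The upper cluster holds 89 BURs and 36 peaks of standard replicate 1, and the lower 15 BURs and 51 such peaks.

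The remaining clusters with at least 8 Zfp genes held 16 to 47 BURs. From Zfp84 to Zfp146 on chromosome 7 (14 Zfp genes, among them Zfp30, Zfp420 and Zfp568), there were 16 BURs, 4 and 5 thymocyte and 10 and 9 brain urea peaks, and 23 and 13 standard peaks. From Zfp871 to Zfp414 on chromosome 17 (11 Zfp genes), there were 47 BURs, 10 and 9 thymocyte and 20 and 15 brain urea peaks, and 29 and 18 standard peaks. From Zfp786 to Zfp467 on chromosome 6 (8 Zfp genes), there were 21 BURs, 7 and 8 thymocyte and 12 and 11 brain urea peaks, 6 and 5 in skin, and 20 and 17 standard peaks. The last had the most skin peaks of these 7 clusters. Over the 31 clusters the BUR density rose with A or T content (Spearman rho 0.75), as did brain urea SATB1 (0.61 and 0.64). The values were lower for urea SATB1 in thymocytes (0.37 and 0.41) and skin (0.15 and 0.36), while standard SATB1 (-0.54 and -0.48) and CTCF (-0.67 and -0.74) fell with it. These values describe clusters that share the same lists and carry no test, and standard densities also went with the unique 50-base share (0.69 and 0.59).

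The Zfp genes with the most BURs and with the most brain urea peaks were long single genes. Zfp407 on chromosome 18 (chr18:84297419-84759117, minus strand) had 54 BURs, 15 and 10 urea peaks in thymocytes, 29 and 31 in brain, 2 and 1 in skin, and 13 and 3 standard peaks. Zfp536, a repressor of neuronal differentiation (chr7:38103693-38554771, minus strand), had 27 BURs, 11 urea peaks in each thymocyte list, 17 and 16 in brain and 4 in each skin list, the most in skin of any Zfp gene. Only 4 and 2 standard peaks lay in its window, and none within 1 kb of its start. Zfp800 had 28 BURs with 4 and 3 thymocyte and 7 and 11 brain peaks, and Zfp644 had 20 BURs with 5 and 4 thymocyte and 9 in each brain list. The windows of Zfp407 and Zfp536 were 502 kb and 491 kb long, against a median of 54.9 kb for Zfp genes, and per Mb their BURs came to 108 and 55.0.

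Zfp521 and Zfp423 encode related proteins of neural and mesenchymal progenitors, and each had 28 fingers by the search. In Zfp521 (chr18:13845522-14131242) there were 18 BURs and 18 and 17 brain urea peaks, against 3 and 1 in thymocytes and none in skin. Of these BURs, 7 were bound in each brain list. In Zfp423 (chr8:90185709-90483494), in a window of similar length, there were 7 BURs, 2 and 1 brain peaks, 1 in each thymocyte list, and no standard peak in either list. Their windows were 57.6% and 50.2% A or T. Zfp438 also leaned to brain, with 10 peaks in each brain list, 1 in each thymocyte list and none in skin. It had 16 BURs, of which 8 and 7 were bound in the brain lists. Zfp148, a factor that binds GC-rich promoters, had 16 BURs, 3 and 2 thymocyte peaks, 8 and 6 brain peaks and none in skin.

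**Figure D5:**
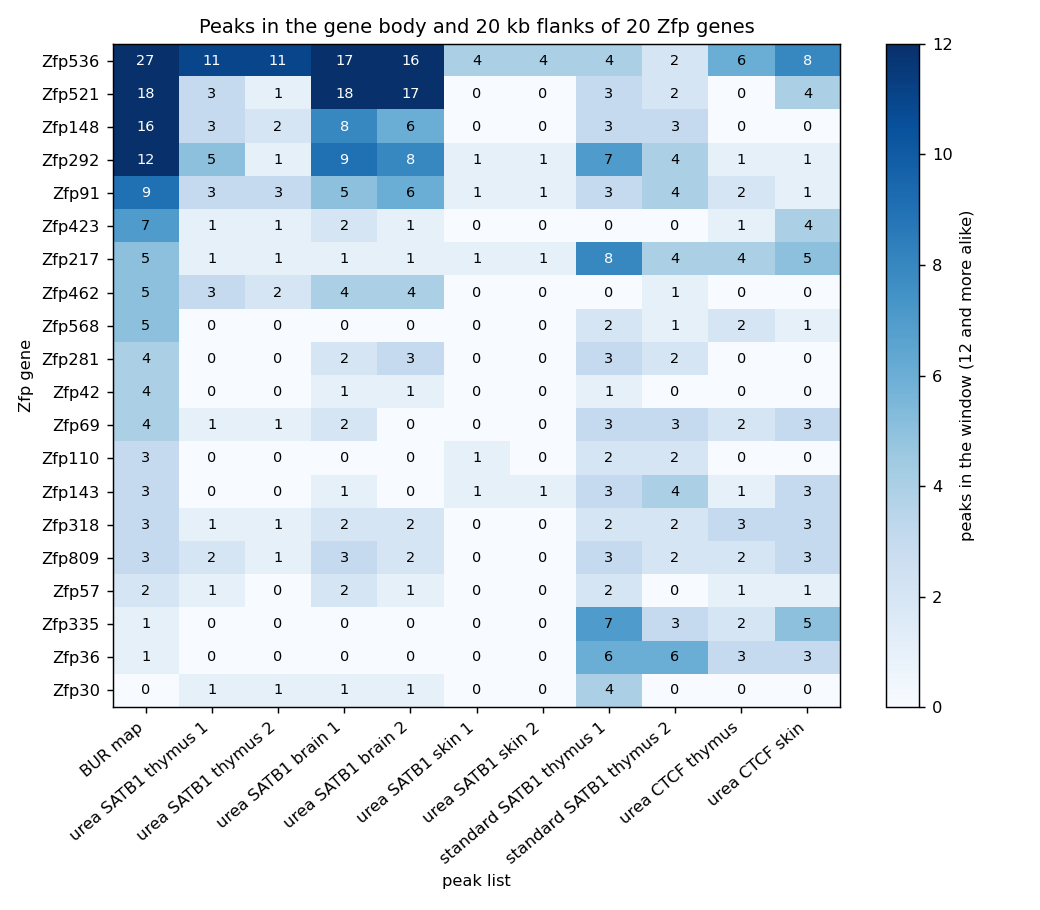
The number of peaks in the gene body and 20 kb flanks of 20 Zfp genes with a known role or structure in each of the 11 lists, with darker cells for more peaks and the same colour from 12 on. Zfp536 and Zfp521 have the most BURs and brain urea peaks, and Zfp335 and Zfp36 have standard peaks without a urea SATB1 peak.

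Several thymocyte urea peaks were also found at genes of 25.0 to 131 kb, fewer than at Zfp407 and Zfp536. Zfp735, a KRAB gene of 25.0 kb, had 9 BURs, 4 urea peaks in each thymocyte list, 7 in each brain list and no standard or CTCF peak. Of its BURs, 4 and 3 were bound in the thymocyte lists and 4 and 5 in the brain lists. Zfp277, a gene of 131 kb, had 4 in each thymocyte list and 7 and 8 in brain, with 1 standard peak in each list. At Zfp91, a zinc finger protein of the NF-kappaB pathway with a gene body of 32.5 kb, 3 urea peaks lay in each thymocyte list, 5 and 6 in brain and 1 in each skin list. The same window held 9 BURs and 3 and 4 standard peaks. Zfp292, of 79.8 kb, had 12 BURs and differed between replicates, with 5 and 1 thymocyte peaks, while its brain lists were close at 9 and 8. Zfp949 and Zfp652 were the genes with urea SATB1 within 1 kb of the start in all 6 lists, and there each had standard SATB1 in both replicates as well.

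Zfp534 had urea SATB1 in the skin lists and in no other. Its window held 9 BURs and 2 urea peaks in each skin list, but none in the thymocyte and brain lists. Only 12.9% of its 50-base stretches were unique in the genome, against 89.7% over all Zfp windows, and the part of this in the pattern was not tested. Zfp141 and Zfp106 also had 2 peaks in each skin list, with 2 and 1 in each thymocyte list.

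Other Zfp genes had standard SATB1 and no urea SATB1. Zfp36, which encodes tristetraprolin, a CCCH finger protein that binds RNA and speeds mRNA decay, had 6 standard peaks in each list, 1 BUR and no urea SATB1 peak. Zfp335 had 7 and 3 standard peaks, 1 BUR and no urea SATB1 peak, and Zfp523 and Zfp219 had 9 and 7 and 9 and 6 standard peaks on the same terms. The most standard peaks lay at Zfp704, with 19 and 6, where 12 BURs carried 1 urea peak in each thymocyte list. The replicates thus differed by more than 3 times at this gene, as they did at Zfp407.

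A few genes are known for silencing or from early development, and their counts lay on both sides of the Zfp medians of 2.5 BURs, 0 thymocyte and 1 brain urea peak and 2 standard peaks. Zfp57, which keeps DNA methylation at imprinted regions, had 2 BURs, 1 and 0 thymocyte and 2 and 1 brain urea peaks, and 2 and 0 standard peaks. Zfp809, which silences retroviruses in embryonic stem cells, had 3 BURs, 2 and 1 thymocyte and 3 and 2 brain peaks, and 3 and 2 standard peaks. Zfp568, a repressor of a placental Igf2 transcript, had 5 BURs and no urea SATB1 peak in any list. Zfp42, the pluripotency marker Rex1, had 4 BURs, 1 urea peak in each brain list and none in thymocytes or skin. At Zfp30 there was no BUR, yet 1 urea peak lay in each thymocyte and each brain list, with 4 and 0 standard peaks. Of the Zfp genes without a BUR, the longest windows were those of Zfp185, Zfp866, Zfp541, Zfp839 and Zfp467, and Zfp467 among them had 1 urea peak in each thymocyte and brain list.

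The genes whose products work with KRAB zinc finger proteins carried standard SATB1 throughout. All 11 genes of a list that holds Trim28, Setdb1, Atf7ip, the HP1 genes Cbx1, Cbx3 and Cbx5, Dnmt1, Uhrf1, Morc3, Atrx and Daxx had a standard peak in both lists in the window and within 1 kb of the start. Over all protein-coding genes these shares were 64.0% in the window and 38.3% at the start. Trim28, the co-repressor that binds the KRAB domain, had no BUR and no urea SATB1 peak, and 5 standard peaks in each list. Atf7ip had 14 BURs, 5 and 4 thymocyte and 10 and 6 brain urea peaks. The 31 Zbtb genes, which pair fingers with a BTB domain, had 67.1 BURs per Mb and urea SATB1 at 15.0 and 13.9 per Mb in thymocytes, and 43.8 and 30.6 per Mb of standard SATB1. In both standard lists 96.8% of them had a peak in the window and 74.2% at the start. Among the 1087 olfactory receptor genes, another family in tandem clusters, 13.4% and 8.10% had a standard peak in the window, and urea SATB1 in brain stood at 73.7 and 67.3 per Mb.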

How the data were processed

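ChIP-seq peak lists of 11 samples were analysed, grouped by their titles, whose replicate numbers for thymocyte urea ChIP-seq are swapped relative to the study's tables. The authors mapped single-end reads of 50 bp to mm9 with Bowtie2 2.3.1, allowing 3 mismatches in the seed and keeping unique matches, and ran MACS2 2.2.7 on each sample with a q-value threshold of 0.01. Whether the caller used an input is not given in the sources used here. Each deposited list gives a display score and summit position. The fold enrichment at the summit is the ratio to local background that the authors' peak caller gave. Of the deposited significance values, the −log10 p-value was not used and the −log10 q-value served for thresholds and ranking. The lists hold no counts, so the depth is unknown and no counting interval is given.

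Genes came from GENCODE vM1 and sequence from NCBIM37. A peak counted when it overlapped a window by at least 1 bp. Densities were taken over merged windows, and groups of lists were compared with exact two-sided permutation tests, with Benjamini-Hochberg adjustment over 6 tests. Fingers and the KRAB signature were searched in the longest translated coding sequence of each gene. Unique 50-base stretches were estimated from 1 in 128 positions. Python 3.11.15, numpy 2.4.6, scipy 1.17.1, numba 0.67.0, biopython 1.88 and matplotlib 3.10.9 were used, and the scripts were tested on simulated data.

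The members, lists, tests and the rule for named genes were chosen with earlier results of these data known. Named were the 5 Zfp genes with the most BURs, with the most urea SATB1 peaks in each tissue and with the most standard peaks, the 3 strongest urea peaks per tissue shared by both replicates, clusters of 8 or more, the 5 longest windows without a BUR, and a fixed list of 20 genes. A peak that this rule names is not reported here. Other genes, and the standard peaks shown as sequence, were named after their values were seen. Alternatives were other flanks, summits in place of overlaps, a stricter q-value, equal list sizes, removal of regions shared by all lists, symbols with letters after the digits, clusters within 250 kb, isolated single genes, means over gene windows, gene bodies under 50 kb, start windows of 3 kb, bases that are not N, a replicate block and each replicate left out. Samples that lack SATB1, inputs, Hi-C, 4C and a second thymocyte CTCF sample were not analysed here.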

Additional observations from a re-analysis of the deposited data

Results flagged for a closer look

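The density of peaks in Zfp windows relative to all protein-coding windows went down in both thymocyte urea lists (log2 ratios -0.52 and -0.62) and up in both standard lists (0.59 and 0.72), so that urea minus standard was -1.22. The difference was tested, but 6 assignments of 4 lists cannot give an exact permutation p below 0.333, which is the value found.

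The density at clustered relative to single Zfp genes likewise went down in both thymocyte urea lists (-0.41 and -0.29) and up in both standard lists (0.20 and 0.27), with urea minus standard at -0.58 and the same smallest p of 0.333. With gene bodies under 50 kb only, this difference was 0.077.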

How the results depend on the processing

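Of 99 differences between groups recomputed under alternatives, 94 kept their direction and 5 turned. No p could fall below 0.0667 for the tissues or 0.333 for urea against standard, so these p-values say nothing about stability. Brain minus skin in the log2 density of Zfp windows relative to all genes was -0.13 and turned to 0.056 with gene bodies alone as windows, 0.21 as a mean over gene windows and 0.15 with gene bodies under 50 kb. Urea minus standard in the clustered to single ratio turned from -0.58 to 0.077 with gene bodies under 50 kb, where the level at clustered relative to single genes also turned to 0.070 in brain and -0.12 for standard SATB1. Brain minus skin in the percentage of BURs bound turned from 25.0 to -0.34 with lists of equal size. The cause of these turns was not tested beyond the construction of each alternative.

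For the tissues at clustered relative to single genes, the exact permutation p of 0.133 became 0.0667 with gene bodies alone, a −log10 q of at least 5, equal list sizes, clusters within 250 kb or gene bodies under 50 kb. Over all other alternatives than the left-out replicates, the values ran from -0.38 to 0.21 for the tissues and from -1.40 to -0.53 for urea minus standard in Zfp windows relative to all genes, from 0.06 to 0.81 and from -1.69 to 0.077 for the same comparisons of clustered and single genes, from -0.34 to 28.1 percentage points for BURs bound and from -64.4 to -59.6 for start sites. Leaving out each replicate gave ranges of -0.22 to -0.04, -1.29 to -1.16, 0.36 to 0.84, -0.65 to -0.52, 24.2 to 25.8 and -73.1 to -53.1 in the same order. Without skin replicate 1, brain minus skin in Zfp windows was -0.04, and without skin replicate 2 it was -0.22. Without skin replicate 2, brain minus skin at clustered genes was 0.36.

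Of 66 counts of Zfp genes with a peak, 54 stayed within 1.5 times. With gene bodies alone the counts were 169 for BURs, 58 and 49 for thymocytes, 112 and 109 for brain, 19 and 18 for skin, and 75 and 94 for CTCF in thymocytes and skin. With flanks of 50 kb they were 221 for thymocyte replicate 1 and 96 and 89 for skin. A background without olfactory and vomeronasal receptor genes and densities per unique 50-base stretch were chosen after seeing the data and turned no difference. The replicate numbers do not pair the samples, since deviations of same-numbered lists correlated at -0.02 to 0.01 over 22231 genes. With a replicate block, the exact permutation p was 0.5 for both urea and standard density differences and for start sites (-1.22, -0.58 and -63.1), 0.5 and 0.333 for the tissue differences (-0.13 and 0.60), and 0.167 for BURs bound (25.0). The 2 lists per group and the unknown depth limit every comparison.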
